A study of Mus musculus with 9 samples.

Results

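The genes described here encode the 3 chains of fibrinogen and 7 other proteins of the clotting system: Fga, Fgb, Fgg, F2, F5, F10, Serpinc1, Plg, Proc and Tfpi. Which cells of the yolk sac made each transcript was not tested. The 10 genes were chosen by name as clotting genes of endoderm, with earlier results of these data known. They are 10 of the 19933 genes that have a probe set of their own on the array. Each was read from the probe set with the highest mean. All 10 lay above the level used to leave out dim genes (for each array, the 40th percentile over its probe sets) on all 9 arrays, so none was lost to the filter. RNA came from mouse yolk sacs at embryonic day 9.5 on a mixed SV 129/C57BL/6 background, untreated, and was read on an Affymetrix array with whole-transcript probe sets, 1 array per sample. There were 3 arrays each of wild type (WT, Rnh1+/+), heterozygous (HET, Rnh1+/-) and knockout (KO, Rnh1-/-) yolk sacs. The product of Rnh1 is the ribonuclease inhibitor, which binds and silences secreted ribonucleases that reach the cytosol. The labels say that maternal tissue was kept out. They do not say which part of Rnh1 is deleted, in which cells, or whether a sample was 1 yolk sac or a pool, nor that samples are from separate animals. The p-values therefore reflect only how far these samples differ, which may be technical.

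Clotting runs as a chain of proteases. Factor X, with factor V as its cofactor, cuts prothrombin to thrombin, and thrombin cuts fibrinogen, a protein of paired alpha, beta and gamma chains, to fibrin. Antithrombin, protein C and tissue factor pathway inhibitor hold this chain back, and plasmin, made from plasminogen, dissolves fibrin. In the adult nearly all of these proteins come from the liver. Before the liver has formed, the visceral endoderm, the outer epithelium of the yolk sac, makes many of the same plasma proteins.

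The array values are log2 signals, so a difference of 1 is a factor of 2. Array medians ran from 7.07 to 7.20, and the correlation r over probe sets was 0.992 to 0.998 within a genotype, against 0.987 to 0.994 for KO with WT or HET. Rnh1 itself stood between 6.28 and 6.87 on KO arrays, 9.75 and 9.77 on HET arrays and 10.32 and 10.42 on WT arrays, in the order of the labels. Sex was not balanced: Xist, which marks the inactive X chromosome, was between 10.56 and 11.67 on every KO array, on WT 2, WT 3 and HET 2, and between 5.15 and 5.76 on the other 3 arrays. The Y-linked Eif2s3y was between 7.28 and 8.81 on 7 arrays and low on WT 3 (4.34) and KO 3 (4.41), so that WT 2, HET 2, KO 1 and KO 2 were high in both transcripts. Visceral endoderm markers were present, with all 16 that had a probe set above the filter and a mean over the list from 11.56 to 11.87 over the 9 arrays. Of 8 markers of fetal liver, albumin (Alb), Cps1 and Tat were below the filter on all 9 arrays, Onecut1 was above it on 2, and Afp, Ttr, Hhex and Prox1 were above it on all 9. Afp and Ttr are visceral endoderm markers as well.

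In KO all 10 genes fell against WT and all 10 fell against HET, while none was called between HET and WT. The falls against WT ran from 0.32 (Fgb) to 1.02 (Fga) on the log2 scale, with a median difference of -0.64, where the median over all 13207 genes tested was -0.01. By limma at an adjusted p under 0.05, 15.2% of all genes tested were lower in KO than in WT and 13.6% lower in KO than in HET. For each of the 10 genes the 3 KO arrays lay below all 3 WT arrays, as did 24.7% of all genes tested, and below all 3 HET arrays, as did 21.4%. The arrays above KO include WT 2, WT 3 and HET 2, those of WT and HET with high Xist. That follows from the separation itself and is no test of the part of sex. Both comparisons use the same KO arrays. The 10 genes were chosen with earlier results known, so their counts beside the shares over all genes are no test of the group. In whole tissue, fewer cells that make a transcript and less transcript per cell cannot be told apart.

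**Figure D1:**
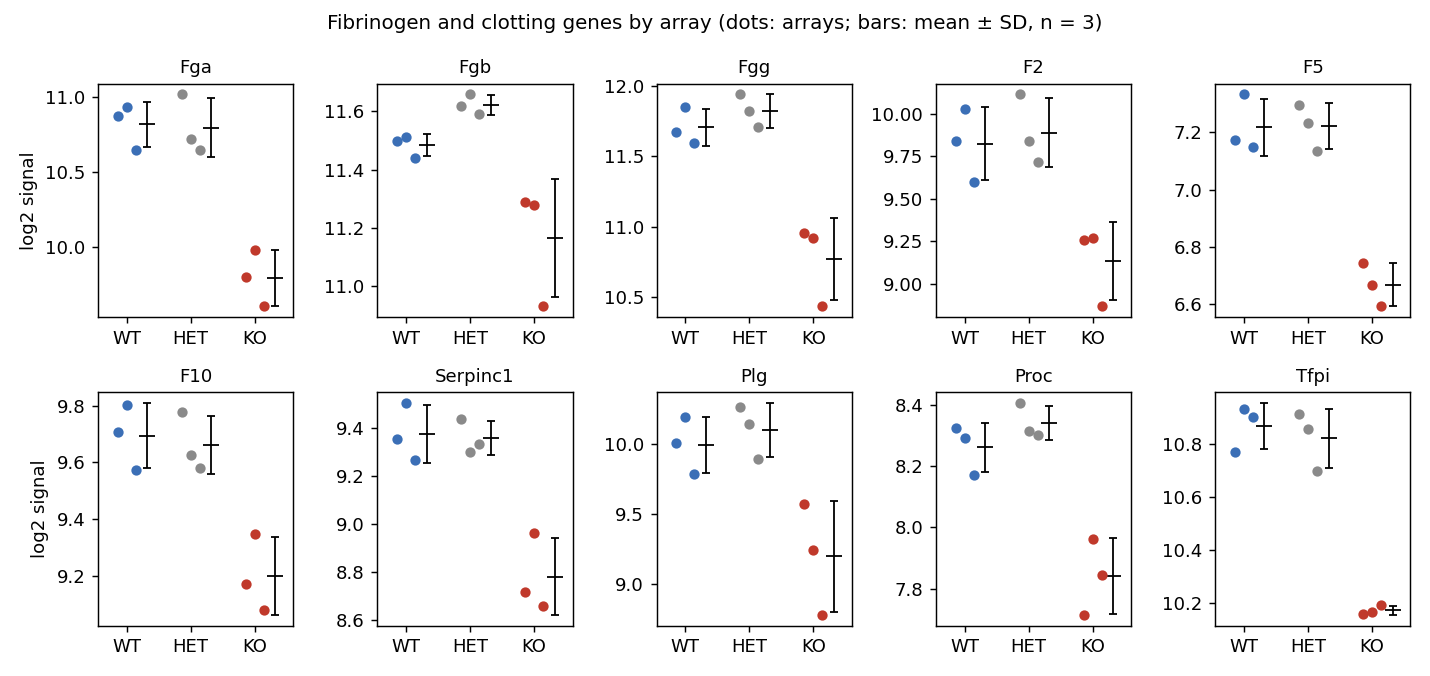
Log2 signal of the 10 genes on each array (y axis, its range set per gene) by genotype (x axis). Dots are arrays, and bars give the mean and SD of 3 arrays. In every panel the 3 KO dots lie below the 6 others, with WT and HET side by side.

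Fibrinogen comes first among the substrates. Fga encodes the alpha chain and is read by a pair of probe sets. On the brighter one (10492748) Fga read 10.87, 10.93 and 10.65 (WT), 11.02, 10.71 and 10.65 (HET) and 9.80, 9.98 and 9.60 (KO). The highest KO array was thus well under the lowest array of either other genotype. Fga fell by 1.02 ± 0.13 (log2 ± SE, 3 arrays per genotype, limma adjusted p = 0.00171), to 49.2% of the WT level, which was place 72 from the largest fall among the 13207 genes. Against HET it fell by 1.00 ± 0.13 (adjusted p = 0.00162). Without any 1 of the 9 arrays it still passed against WT, at adjusted p from 0.0032 to 0.0115.

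The dimmer Fga probe set (10492755) gave the same picture. It read 10.48, 10.43 and 10.20 (WT), 10.50, 10.06 and 10.06 (HET) and 9.25, 9.54 and 9.07 (KO). Its fall against WT was 1.08 ± 0.15 (limma adjusted p = 0.00237) and its fall against HET was 0.92 ± 0.15 (adjusted p = 0.00407), with KO again below all other arrays. The distance between the pair within an array was 0.45 ± 0.06 (WT), 0.58 ± 0.07 (HET) and 0.51 ± 0.06 (KO), as mean ± SD of 3 arrays on the log2 scale. The change of that distance from WT to KO was 0.06 (two-sided exact permutation p = 0.3), about as large as the SD between arrays. From WT to HET it was 0.14, with all 3 HET arrays above all 3 WT arrays (exact permutation p = 0.1, the smallest that 3 against 3 allow). The probe table ties both probe sets to the same RefSeq transcripts of Fga and does not separate its isoforms.

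Fgg, the gamma chain gene, fell about as far. It read 11.68, 11.85 and 11.60 (WT), 11.94, 11.82 and 11.71 (HET) and 10.95, 10.92 and 10.43 (KO), where KO 3 was lowest. The fall was 0.94 ± 0.14 against WT (limma adjusted p = 0.00281) and 1.06 ± 0.14 against HET (adjusted p = 0.0017). KO thus held 52.1% of the WT level and 48.1% of the HET level.

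Fgb, the beta chain gene, moved least of the 10 against WT. Its values were 11.50, 11.51 and 11.44 (WT), 11.62, 11.66 and 11.59 (HET) and 11.29, 11.28 and 10.93 (KO). KO 1 and KO 2 lay just under the WT arrays and KO 3 well under them. The fall was 0.32 ± 0.09 against WT (limma adjusted p = 0.0366), to 80.2% of the WT level, and 0.46 ± 0.09 against HET (adjusted p = 0.0096). The call against WT was lost without any single WT or HET array, at adjusted p from 0.0508 to 0.104, and passed without any single KO array.

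The unequal size of these changes was tested within arrays, where differences in overall yield drop out. The level of Fga minus that of Fgb was -0.63, -0.58 and -0.80 (WT), -0.60, -0.94 and -0.94 (HET) and -1.49, -1.30 and -1.33 (KO). Fgb minus Fgg was -0.18, -0.34 and -0.15 (WT), -0.32, -0.16 and -0.12 (HET) and 0.34, 0.36 and 0.50 (KO). In both measures the KO arrays stood apart from the 6 others.

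From WT to KO, Fga fell by 0.70 more than Fgb, and Fgg by 0.62 more than Fgb. For each of these a two-sided exact permutation test gave p = 0.1, and 3 against 3 arrays allow no smaller value. Against the 6 WT and HET arrays together both gave an exact permutation p of 0.0119, the smallest that 3 against 6 allow (0.0238 after Benjamini-Hochberg adjustment over the 4 within-array tests). Fga minus Fgg did not separate the genotypes: its change from WT to KO was -0.08 (exact permutation p = 0.5).

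**Figure D2:**
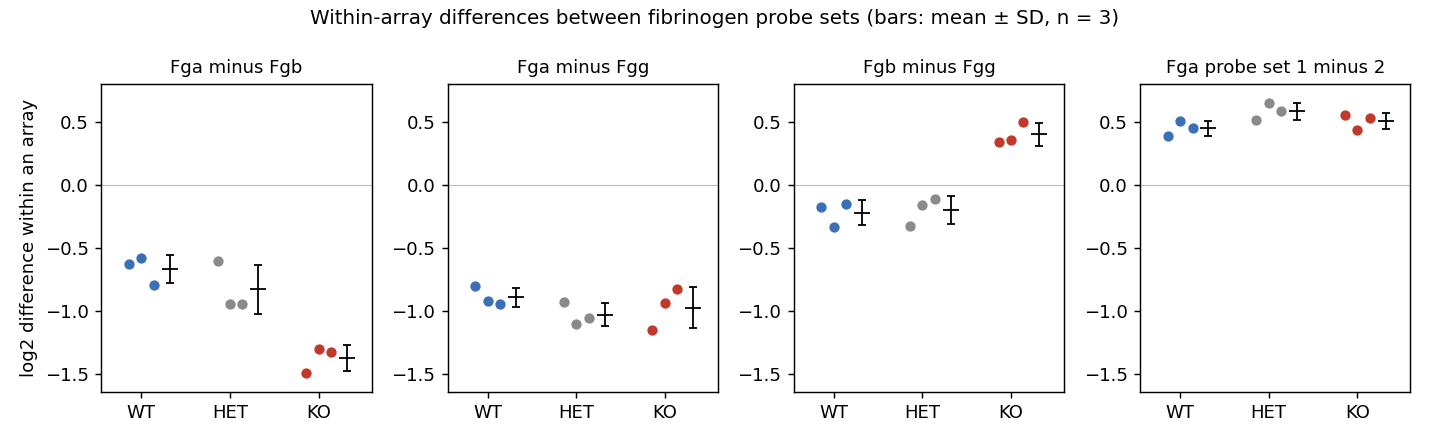
Log2 difference between pairs of fibrinogen probe sets on the same array (y axis) by genotype (x axis), with dots for arrays and bars for mean and SD of 3 arrays. Fga minus Fgb drops and Fgb minus Fgg rises in KO, while KO overlaps WT in Fga minus Fgg and in the pair of Fga probe sets. For that pair of probe sets all HET dots lie above all WT dots.

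The 3 fibrinogen genes lie side by side on mouse chromosome 3, in the order Fgg, Fga, Fgb by the RefSeq gene table, with Fgb on the opposite strand. Of the protein-coding genes beside them, Plrg1, a splicing factor gene next to Fgb, stood at -0.12 ± 0.05 in KO against WT (limma adjusted p = 0.14). Lrat, a retinol-esterifying enzyme gene next to Fgg, was below the filter on every array and was not tested. Rbm46, the next coding gene past Lrat, which encodes an RNA-binding protein, read 6.91, 7.34 and 6.70 (WT), 6.995, 6.69 and 6.70 (HET) and 6.08, 5.62 and 6.29 (KO), with all KO arrays under the level of the filter. It fell by 0.99 ± 0.20 against WT (limma adjusted p = 0.0091) and by 0.80 ± 0.20 against HET (adjusted p = 0.0215). The call against HET was lost without HET 1, HET 2 or KO 2 (adjusted p up to 0.0821).

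The 250 bases before the RefSeq start of each fibrinogen gene are shown because these neighbours fell by different amounts. The sequences are RefSeq's on GRCm38.p6, 5′ to 3′ on the gene's own strand, and capitals mark the letters of a C/EBP site, named for a family of liver-type transcription factors (TTGCNNAA, which on the other strand become TTNNGCAA). They lie at chr3:83025903-83026152 (plus strand) for Fga, chr3:83049864-83050113 (minus strand) for Fgb and chr3:83007474-83007723 (plus strand) for Fgg. For the array's own annotation, no build is named in the sources used here.
Fga: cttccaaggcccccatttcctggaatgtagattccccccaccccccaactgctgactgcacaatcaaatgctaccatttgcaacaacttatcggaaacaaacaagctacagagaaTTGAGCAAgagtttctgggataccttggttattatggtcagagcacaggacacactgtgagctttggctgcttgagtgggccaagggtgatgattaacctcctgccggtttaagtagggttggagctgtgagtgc
Fgb: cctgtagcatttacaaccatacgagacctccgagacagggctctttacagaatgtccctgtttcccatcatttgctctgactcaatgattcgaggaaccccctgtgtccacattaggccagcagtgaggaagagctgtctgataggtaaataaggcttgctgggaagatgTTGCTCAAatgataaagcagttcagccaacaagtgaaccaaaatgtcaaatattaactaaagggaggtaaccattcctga
Fgg: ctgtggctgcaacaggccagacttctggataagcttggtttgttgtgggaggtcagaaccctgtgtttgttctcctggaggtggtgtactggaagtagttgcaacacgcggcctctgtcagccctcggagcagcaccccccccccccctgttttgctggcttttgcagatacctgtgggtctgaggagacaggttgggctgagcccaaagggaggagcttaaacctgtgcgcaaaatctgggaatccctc

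In all, 2 motifs were searched on both strands in windows of 300 bases, 250 before and 50 after the start, for 8 of the 10 genes. Plg has no window, and the chromosome of Proc was left out of the search among these genes. The shares over all windows do include that chromosome. The C/EBP letters were found for Fga (first base at -135 from the start), Fgb (-80) and Serpinc1 (5 bases past it), and in 10.8% of all 32851 windows. The TATA letters TATAAA (on the other strand these become TTTATA) were found in 1 of the windows of Tfpi alone among these genes, and in 13.6% of all windows. Fga and Fgb both hold the C/EBP letters, and Fgg holds neither motif in this window. The part of either motif in the falls was not tested.

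Next are the factors that lead to thrombin. F2, the prothrombin gene, read 9.84, 10.03 and 9.60 (WT), 10.11, 9.84 and 9.71 (HET) and 9.26, 9.27 and 8.87 (KO). All 3 KO arrays lay under the lowest WT array, WT 3. F2 fell by 0.69 ± 0.15 against WT (limma adjusted p = 0.0124) and by 0.76 ± 0.15 against HET (adjusted p = 0.00897), and the adjusted p without any 1 array was at most 0.0454 against WT.

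F10, the gene of factor X, read 9.71, 9.80 and 9.57 (WT), 9.78, 9.62 and 9.58 (HET) and 9.17, 9.35 and 9.08 (KO). WT and HET overlapped almost fully. The fall was 0.50 ± 0.09 against WT (limma adjusted p = 0.0063) and 0.46 ± 0.09 against HET (adjusted p = 0.00867), which left 70.9% of the WT level.

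F5, the gene of the cofactor factor V, was the dimmest of the 10 on this array, between the 40.3 and 53.0 percentiles of all probe sets. It read 7.17, 7.33 and 7.15 (WT), 7.30, 7.23 and 7.13 (HET) and 6.74, 6.67 and 6.59 (KO), and the arrays of a genotype were close together. F5 fell by 0.55 ± 0.07 against WT (limma adjusted p = 0.00202) and by 0.56 ± 0.07 against HET (adjusted p = 0.00173). Platelets also carry factor V. Of 8 measured markers of megakaryocytes and platelets 1, Gp9, fell in KO against WT (-0.45 ± 0.09, limma adjusted p = 0.0104), and the list mean was 7.97 to 8.29 in WT, 7.97 to 8.03 in HET and 7.71 to 7.94 in KO. All 8 were above the filter, and 4 listed markers had no probe set of their own. The share of all genes tested that were lower in KO than in WT was 15.2%. The part of these cells in the F5 result was not tested.

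The inhibitors of clotting fell as well. Tfpi encodes tissue factor pathway inhibitor, which blocks the first step of the chain. It read 10.77, 10.93 and 10.90 (WT), 10.92, 10.86 and 10.70 (HET) and 10.16, 10.16 and 10.19 (KO), where the spread was the smallest of the 10 genes (SD 0.018). Its fall of 0.70 ± 0.07 against WT (limma adjusted p = 0.0012) had the smallest p of the 10 genes, place 48 of 13207, and KO held 61.7% of the WT level. Against HET it fell by 0.65 ± 0.07 (adjusted p = 0.000969).

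Serpinc1, the antithrombin gene, read 9.35, 9.50 and 9.27 (WT), 9.44, 9.30 and 9.33 (HET) and 8.72, 8.96 and 8.66 (KO). It fell by 0.60 ± 0.09 against WT (limma adjusted p = 0.00352) and by 0.58 ± 0.09 against HET (adjusted p = 0.00393). Again the KO arrays lay wholly below the rest.

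Proc encodes protein C, which inactivates factor V and factor VIII. Its values were 8.32, 8.29 and 8.17 (WT), 8.41, 8.31 and 8.30 (HET) and 7.71, 7.96 and 7.84 (KO). It fell by 0.42 ± 0.08 against WT (limma adjusted p = 0.00597), to 74.7% of the WT level, and by 0.50 ± 0.08 against HET (adjusted p = 0.00307).

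Plg, the plasminogen gene, had the widest spread of the 10 in KO. It read 10.01, 10.19 and 9.79 (WT), 10.27, 10.15 and 9.89 (HET) and 9.57, 9.24 and 8.77 (KO). KO 1 came nearest to WT 3, and KO 3 lay farthest down. The fall was 0.80 ± 0.19 against WT (limma adjusted p = 0.018) and 0.91 ± 0.19 against HET (adjusted p = 0.0116). The call against WT was lost without WT 1 (adjusted p = 0.0571) or WT 2 (0.065), and that against HET without HET 1 (0.0503).

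**Figure D3:**
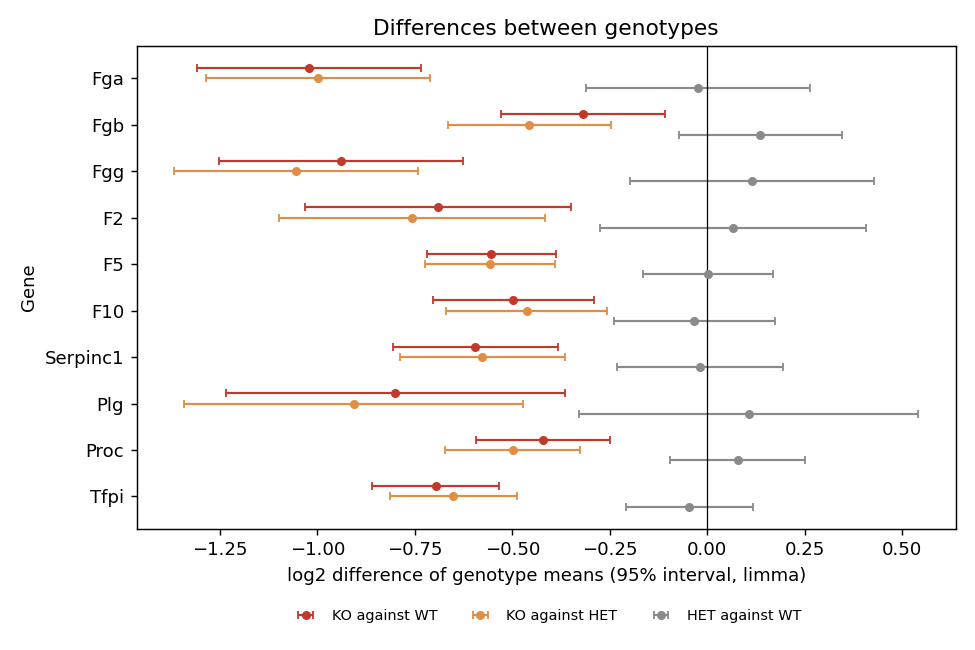
Log2 difference of genotype means (x axis, with 95% limma intervals) for each of the 10 genes (y axis), in 3 comparisons by colour. The KO intervals lie below 0 for all 10 genes and the HET against WT intervals all include 0.

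Between HET and WT no difference was called, not even that of Rnh1 itself. Rnh1 stood at -0.62 ± 0.13, with all HET arrays below all WT arrays (limma adjusted p = 0.939). A missing call here therefore does not show equal levels. None of the 10 genes passed in HET against WT by limma, where 0% of the genes tested were called and 2.48% had an unadjusted p under 0.05, which none of the 10 did. Differences ran from -0.05 (Tfpi, 95% interval -0.21 to 0.12) to 0.14 (Fgb, -0.07 to 0.35). The widest interval was that of Plg, from -0.33 to 0.54. Fgb was the only one whose groups did not overlap, with all HET arrays above all WT arrays, as for 4.25% of genes tested (limma adjusted p = 0.939). The whole-array count with other settings was not always 0: 6 genes with array weights, 5 without WT 2, 4 without WT 2 and KO 1 together and 1 without KO 1, none of them among the 10.

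Sex-linked terms and single arrays change these counts. With the Xist level of each array as a covariate 8 of the 10 genes passed in KO against WT (not Fgb, adjusted p = 0.0875, nor Plg, 0.0509) and 6 in KO against HET (not Fgb, F2, F10 or Plg, adjusted p from 0.08 to 0.0922). The differences behind the lost calls stood close to those without the term: -0.32 against -0.32 for Fgb and -0.78 against -0.80 for Plg in KO against WT. In KO against HET Fgb stood at -0.45 against -0.46, F2 at -0.68 against -0.76, F10 at -0.41 against -0.46 and Plg at -0.87 against -0.91. That term also lowered the count over all genes from 3101 to 2016 against WT and from 2875 (21.8%) to 843 against HET. With the Y-linked Eif2s3y as the covariate all 10 passed in both comparisons. WT 2 (-0.41) and KO 1 (-0.72) lay at one end of the next principal component after the one that parts KO from the rest (18.7% of the variance, scores scaled to unit length over the 9 arrays), where the other arrays lay between 0.00 and 0.45. Without WT 2 and KO 1, 9 of 10 passed against WT, the exception being Fgb, and all 10 against HET. The part of sex in the KO differences was not otherwise tested.

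The rest of the clotting system was read from a list of 44 further genes, of which 31 could be tested. In KO against WT 16 fell, 3 rose and 12 did not pass, with a median difference of -0.36. Of all genes tested 23.5% were called in this comparison, with 8.27% higher in KO, with a median of -0.01. The number called on the list was 10 without WT 1, and 10 of the 19 calls passed whichever single array was left out.

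Of 11 procoagulant genes 8 fell and 0 rose. Kng1, a kininogen gene whose product starts contact activation with its partners, fell by 1.22 ± 0.17 (limma adjusted p = 0.00233), from 10.36, 10.84 and 10.32 in WT to 9.56, 9.28 and 9.01 in KO, and Kng2 by 0.75 ± 0.13 (adjusted p = 0.005). Kng1 and Kng2 are close copies, so their probe sets may share signal. Ggcx, which encodes the carboxylase that prothrombin, factor X and protein C need for activity, fell by 0.57 ± 0.08 (adjusted p = 0.00222), and Vkorc1, which recycles vitamin K for it, by 0.35 ± 0.09 (adjusted p = 0.0222). Lman1, whose product carries factors V and VIII out of the endoplasmic reticulum, fell by 0.33 ± 0.06 (adjusted p = 0.0043). Its partner Mcfd2 stood at -0.30 ± 0.10 (adjusted p = 0.0523) and did not pass.

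F7 (-0.38), F8 (-0.30) and F3 (-1.11) passed too. F3, the tissue factor gene, read 8.90, 7.96 and 9.72 (WT), 7.89, 7.95 and 7.75 (HET) and 7.68, 7.71 and 7.88 (KO), so that WT 1 and WT 3 were high and the rest alike. Its call was lost without any single array other than WT 2 (adjusted p up to 0.115), that of F7 without WT 1 or WT 2, that of F8 without WT 1, WT 2 or KO 2, and that of Vkorc1 without WT 1, WT 2, KO 2 or KO 3. Markers of parietal endoderm had the same shape as F3, with list means of 10.66, 9.90 and 11.08 in WT, 9.76 to 9.88 in HET and 9.75 to 9.93 in KO, and their part in the F3 result was not tested. F9, F11, F12, F13a1 and F13b were too dim to be tested.

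Of 8 further anticoagulant genes 5 fell and 0 rose. Serpind1, the heparin cofactor II gene, fell by 1.16 ± 0.18 (limma adjusted p = 0.00302), Proz, the protein Z gene, by 0.74 ± 0.10 (adjusted p = 0.00235) and Pros1, the gene of the protein C cofactor protein S, by 0.63 ± 0.08 (adjusted p = 0.00171). Serpina10, whose product inhibits factor X together with protein Z, stood at -0.47 ± 0.14 (adjusted p = 0.0362), a call lost without WT 1, WT 2, HET 2 or any KO array. Thbd, the thrombomodulin gene, fell by 1.09 ± 0.26 (adjusted p = 0.0178). It is also a parietal endoderm marker, had WT 3 highest (9.16), and lost its call without WT 1 or KO 2 (adjusted p up to 0.059).

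Among the genes around plasmin there were few calls. Of 9 tested, 2 fell, 1 rose and 6 did not pass, with 8 of the differences below 0 and a median of -0.30. Of all genes tested 15.2% were lower and 8.27% higher in KO than in WT. With 9 genes, the counts on this list are not far from those shares. Plgrkt, which encodes a plasminogen receptor, fell by 0.81 ± 0.15 (limma adjusted p = 0.00558) and Serpinf2, the antiplasmin gene, by 0.36 ± 0.11 (adjusted p = 0.0394), the latter lost without any single array other than KO 1 or KO 2. Plau, the gene of the plasminogen activator urokinase, rose by 0.64 ± 0.11 (adjusted p = 0.00482), from 7.32, 7.62 and 7.45 in WT to 8.22, 8.21 and 7.89 in KO. Plat, the tissue activator, stood at -0.74 ± 0.30 (adjusted p = 0.105) and did not pass.

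Among the receptors for thrombin, F2r, the main one, rose by 0.39 ± 0.07 (limma adjusted p = 0.00759), from 10.41, 10.41 and 10.48 in WT to 10.92, 10.72 and 10.82 in KO. F2rl3 stood at 0.22 ± 0.07 (adjusted p = 0.049) and F2rl2 at -0.42 ± 0.12 (adjusted p = 0.0406). The F2rl2 call passed only without KO 1, and the F2rl3 call only without WT 2 or HET 3, when single arrays were left out.

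In KO against HET 15 of the 31 genes fell, 2 rose (Plau and F2r) and 14 did not pass, with a median of -0.32. Of all genes tested 21.8% were called in this comparison and 13.6% were lower in KO. Mcfd2 (-0.32, limma adjusted p = 0.0413) and Plaur, the urokinase receptor gene (-0.39, adjusted p = 0.0415), passed in this comparison, Mcfd2 with 1 array left out only without KO 2 and Plaur only without WT 2, HET 3 or KO 2.

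**Figure D4:**
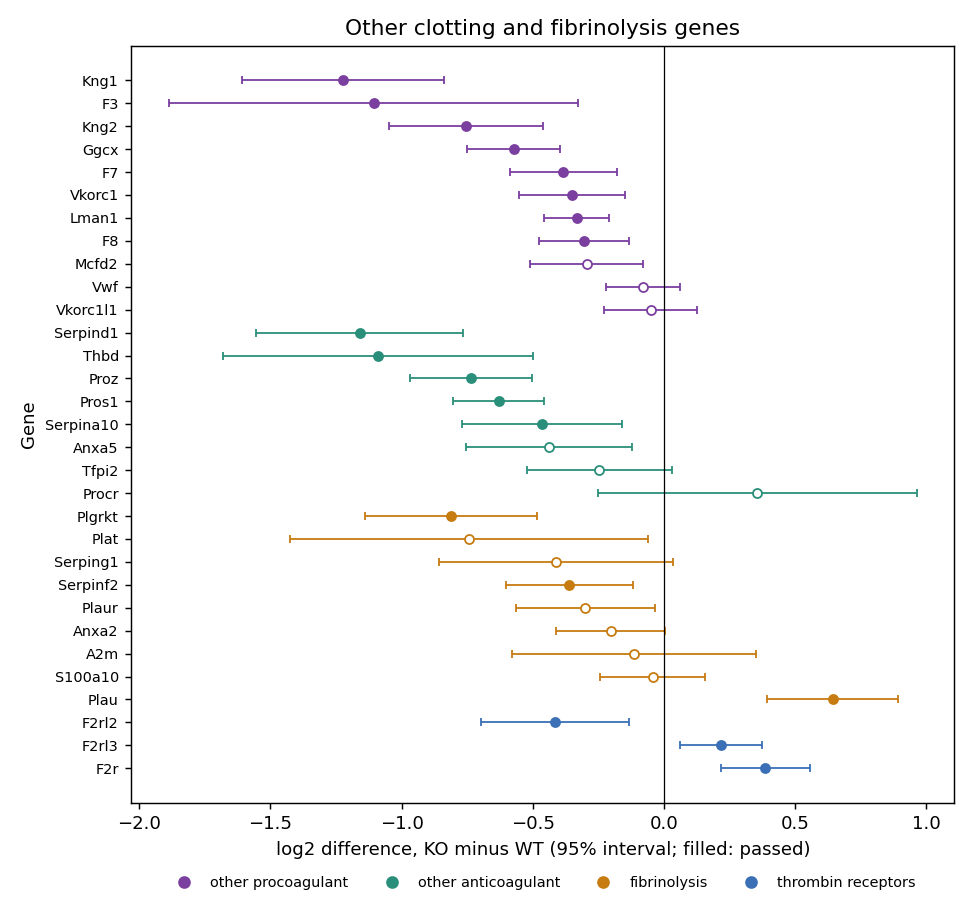
Log2 difference between KO and WT (x axis, with 95% limma intervals) for the 31 further genes tested (y axis), coloured by role. Filled points passed at an adjusted p under 0.05: 16 lie below 0 and 3 above it, namely F2r, F2rl3 and Plau.

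Some other products and markers of visceral endoderm fell as well, where 15.2% of all genes tested were lower in KO than in WT. On the list of 16 visceral endoderm markers 2 fell in KO against WT, about that share, with a median of -0.15. They were Afp (by 0.33 ± 0.07, limma adjusted p = 0.00814) and the zinc importer gene Slc39a4 (by 0.72 ± 0.09, adjusted p = 0.00171). Of 8 apolipoprotein and lipoprotein assembly genes 4 fell, with a median of -0.24, among them Apoa4 (-0.69 ± 0.08, adjusted p = 0.00132) and Mttp (-0.41 ± 0.07, adjusted p = 0.00527). The other two, Apoa2 (-0.35) and Apoe (-0.24), lost their calls without WT 1 or WT 2, and Apoa2 also without KO 3. Of 6 tested serum carrier genes 3 fell, with a median of -0.27: Itih2 (-1.31 ± 0.22, adjusted p = 0.0043), the transferrin gene Trf (-0.51 ± 0.07) and Afp, which is on both lists. The difference between these lists and the 10 clotting genes was not tested.

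Among 11 tested regulators known to drive such genes in liver, 3 fell, 0 rose and 8 did not pass, with a median of -0.09. Over all genes tested 23.5% were called in KO against WT and 15.2% were lower. With 11 genes, the count on this list is not far above those shares. Ppargc1a, a coactivator, fell by 1.04 ± 0.17 (limma adjusted p = 0.0042), the bile acid receptor gene Nr1h4 by 0.78 ± 0.18 (adjusted p = 0.0153) and Stat3, which carries acute phase signals, by 0.27 ± 0.05 (adjusted p = 0.00539). Nr1h4 did not pass without WT 2 and KO 1 together (adjusted p = 0.0503). Hnf4a stood at -0.17 ± 0.09 (adjusted p = 0.199).

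A few genes listed as markers of other tissues differed between genotypes on the same arrays. In KO against WT 23.5% of all genes tested were called, and 8.27% were higher in KO. Of 3 genes tested from the trophoblast list 1, Hand1, rose in KO against WT (0.75 ± 0.10, limma adjusted p = 0.00184). Hand1 was above the filter on all 9 arrays. The mean over all 7 trophoblast markers with a probe set was 6.19 to 6.66 in WT, 5.98 to 6.73 in HET and 6.84 to 7.35 in KO. Prl7d1, Ctsq and Tpbpb were below the filter on all 9 arrays, and Tpbpa was above it on KO 3 alone (7.84, against 4.26 to 5.90 on the others). Of 6 genes tested from the maternal decidua list 1, Hand2, rose in KO against WT (0.45 ± 0.06, limma adjusted p = 0.00171). The list mean over 8 markers was 7.61 to 8.01 in WT, 7.38 to 7.84 in HET and 7.91 to 8.17 in KO. Hand2 too was above the filter on all 9 arrays. In which cells of these samples Hand1 and Hand2 were made was not tested. Prl8a2, a decidual prolactin gene, read 9.40, 8.90 and 10.72 (WT), 6.50, 9.75 and 7.18 (HET) and 10.40, 9.76 and 11.34 (KO) and was above the filter on 8 of the 9 arrays, all but HET 1, while the labels exclude maternal tissue. It was higher in KO than in HET by 2.69 ± 0.81 (limma adjusted p = 0.0431), a call lost without WT 1, HET 1, HET 3 or any KO array, and did not pass against WT. Of 4 embryo proper markers tested 1, the heart gene Myl7, rose against WT (0.75 ± 0.17, limma adjusted p = 0.016). Its call was lost without WT 2 or KO 3. List means were 6.24 to 6.48 in WT, 6.40 to 6.58 in HET and 6.39 to 7.04 in KO. Sox2, on this list but not tested, was above the filter on KO 3 alone (7.46, against at most 5.65 on the others).

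Some blood cell and vessel markers were called too, where 15.2% of all genes tested were lower in KO than in WT and 8.27% higher. Of 5 macrophage markers tested 3 fell in KO against WT: Mrc1 by 1.29 ± 0.25 (limma adjusted p = 0.00781), Fcgr3 by 0.83 ± 0.19 (adjusted p = 0.0164, lost without WT 1 or WT 2) and Csf1r by 0.39 ± 0.09 (adjusted p = 0.0152, lost without WT 2). The mean over 8 macrophage markers was 6.99 to 7.13 in WT, 7.03 to 7.21 in HET and 6.72 to 6.82 in KO. Of 9 erythroid markers 5 fell, of which Alas2 (-0.89), Epb42 (-1.01) and Rhd (-1.26) passed whichever array was left out and Slc4a1 and Hbb-y did not, and the list mean was 10.95 to 11.15 in WT, 10.86 to 11.18 in HET and 10.33 to 10.82 in KO. Of 8 endothelial markers 1 rose (Cldn5, lost without any single array other than KO 1) and 1 fell (Tek, lost without any WT array, KO 2 or KO 3), with list means of 9.71 to 9.85 in WT and 9.73 to 9.82 in KO. The part of the makeup of the samples in the falls of the clotting genes was not tested.

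**Figure D5:**
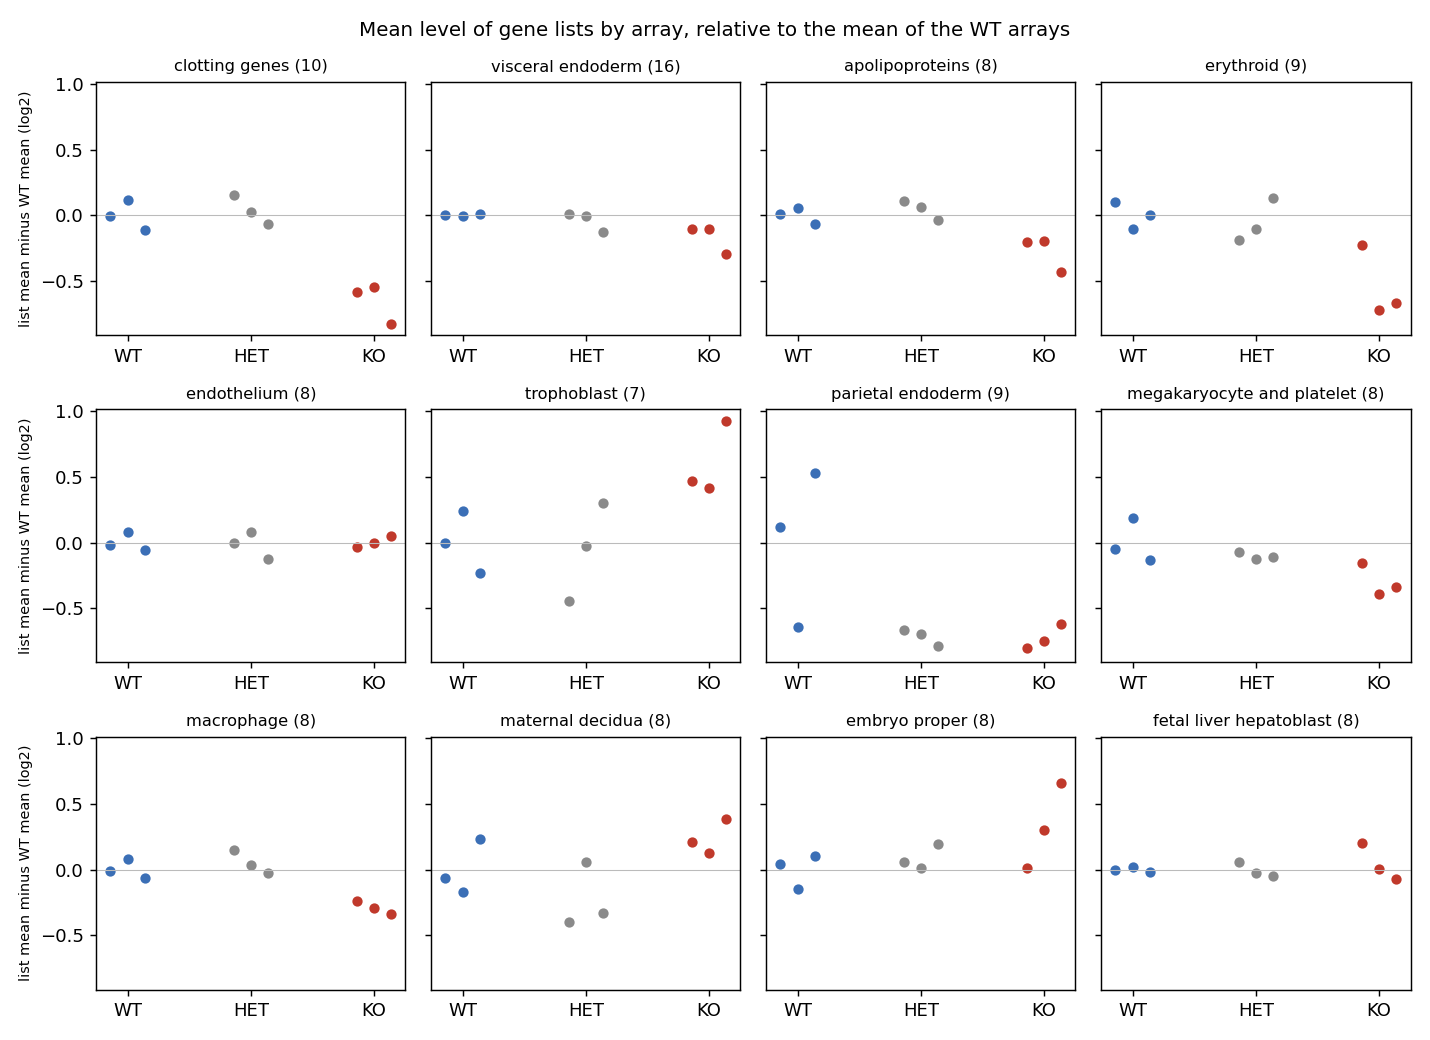
Mean log2 level of 12 gene lists on each array minus the mean of the 3 WT arrays (y axis) by genotype (x axis), with the number of genes in brackets. The clotting genes, visceral endoderm, apolipoprotein, erythroid, megakaryocyte and macrophage lists have their 3 KO dots below all WT dots. In the visceral endoderm list HET 3 lies below KO 1 and KO 2. The trophoblast list has its KO dots above all WT dots, and the parietal endoderm list sets WT 1 and WT 3 above the rest.

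The genes whose values over the 9 arrays were most like those of Fga were Pls1 (Pearson r = 0.998), Gnb4 (0.997), Them7 (0.995), Gstz1 (0.994) and Epb41l3 (0.994), out of 12584 compared. For F5 they were Ghr (0.999), Cryz (0.999), Crot (0.996), Snap29 (0.995) and Gja5 (0.995). These r values are descriptions over 9 arrays in which KO stands apart from WT and HET, and they carry no test. All 10 of these genes were lower in KO than in WT, by 0.32 (Epb41l3) to 1.67 (Gja5).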

How the data were processed

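The authors deposited a log2 signal for every probe set. RMA and the Affymetrix software Expression Console (version 1.2.1.20) are named in the submitters' processing notes. All 9 columns were used as deposited. Of 28350 probe sets 21780 named 1 gene symbol, 1618 several and 4952 none in the probe table, and only the first kind was used (19933 genes, highest-mean probe set per gene). Genes above the 40th percentile of their array on at least 3 arrays were tested (13207).

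One limma 3.58.1 model (R 4.3.3) held all 9 arrays with genotype as the factor. P-values were adjusted by Benjamini-Hochberg over all genes tested, and a gene passed under 0.05. Differences between probe sets within an array were compared by two-sided exact permutation tests. Alternatives were other filters, normalizations, probe set summaries, priors, weights, a replicate block, sex-linked covariates and each array left out. The number of arrays limits the precision.

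The 10 genes and all lists were chosen with earlier results of these data known. Text names the 10 genes, every further clotting gene that passed, up to 4 of each other list by unadjusted p, and the 5 genes most like Fga and F5. Plrg1, Lrat, Rbm46, Prl8a2, Tpbpa, Sox2, Plat, Hnf4a, Hbb-y and the genes given as too dim were named after their values were seen. The choice of promoter motifs also followed.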

Additional observations from a re-analysis of the deposited data

How the results depend on the processing

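Of 690 values of the 10 genes under 23 alternatives, 670 kept their direction and side of the threshold, 19 lost a call, 1 (Tfpi, HET against WT) moved and 0 changed sign while called. The count of the 10 genes called in KO against HET was 6 with Xist as a covariate, and with single arrays left out it was 8 to 10 against WT and 9 to 10 against HET. All genes called in KO against WT numbered 5753 with array weights (whose estimation stopped before it converged) and 2016 with Xist, and 1669 to 3842 with 1 array left out. In KO against HET they numbered 1739 with Eif2s3y, 843 with Xist and 1508 to 3149 with 1 array left out. In HET against WT they numbered 6 with array weights, 4 without WT 2 and KO 1, and 0 to 5 with 1 array left out. Further clotting genes called numbered 10 to 16 with 1 array left out. With WT and HET together as control, Fga minus Fgb stood at -0.62 and Fgb minus Fgg at 0.61 (exact permutation p = 0.0119 each), and the pair of Fga probe sets at -0.009. Fga minus Fgg ran from -0.155 to 0.007 with 1 array left out. The cause of these shifts was not tested.

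Arrays of different genotypes that share a replicate number correlated in their deviations from -0.26 to 0.43. For arrays with different numbers the range was -0.59 to 0.41. These ranges overlap and do not settle whether the numbers pair the samples. With the replicate block all 10 genes still passed in KO against both other genotypes, and 3131 genes passed against WT and 2853 against HET. The within-array differences (-0.70, -0.08, 0.62 and 0.06) cannot move with this block, since each number holds 1 array of each genotype.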
